A study of Homo sapiens with 9 samples.

Results

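The SNAI, ZEB and TWIST factors are 6 genes, SNAI1, SNAI2, ZEB1, ZEB2, TWIST1 and TWIST2, chosen by their symbols from the 20777 genes of a count table of LX-2 cells. These cells are an established human line made from hepatic stellate cells, labelled wild type, and all cultures were kept in DMEM with fetal bovine serum and antibiotics. Total RNA was sequenced in 9 libraries, of which 3 came from untreated cells (control), 3 from cells given TGF-β and 3 from cells labelled with both uridine and TGF-β (TGF-β + uridine), where the study's methods place uridine in fresh medium after the TGF-β step, with both treatments labelled day 1. Nothing in the sources used here says whether the libraries of a group came from separate cultures, so p-values measure the spread between these libraries, which may be technical. The series holds no group that received uridine without TGF-β.

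SNAI1 (SNAIL) and SNAI2 (SLUG) are zinc finger repressors that bind the E-box letters CAGGTG, recruit corepressors, and silence E-cadherin and other genes of epithelial cell junctions. ZEB1 and ZEB2 read the same letters with zinc finger clusters at both ends of the protein and are held low by the miR-200 family, whereas TWIST1 and TWIST2 are basic helix-loop-helix factors that bind E-boxes as dimers. These factors drive epithelial to mesenchymal transition, and in hepatic stellate cells, which are mesenchymal from the start, SNAI1 and TWIST1 have been studied as parts of the activation program that TGF-β starts.

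Total counts ranged from 40539751 to 41467124 per library, so that depth hardly differed between groups. Of the 18 stellate and fibroblast markers analysed, VIM (38916 to 74990 reads), THY1, PDGFRB, DES and COL1A1 were well detected, while the 4 genes COL1A2, RELN, GFAP and HAND2 had at most 4 reads in any library and LRAT was not analysed here. The summed reads of these markers were 62580 to 76956 in control, 109663 to 110415 in TGF-β and 100489 to 104348 in TGF-β + uridine libraries. Keratin KRT8, a gene of simple epithelia, had 172838 to 241872 reads in control, 204215 to 212681 in TGF-β and 179798 to 200707 in TGF-β + uridine libraries. The epithelial and bile duct list, nearly all of it keratin KRT7, summed to 65389 to 88042, 124888 to 128115 and 90885 to 106762 reads, while its member EPCAM had at most 5 reads. The macrophage receptor CSF1R rose under TGF-β from 379 to 435 reads to 1585 to 1785 (edgeR adjusted p = 4.05e-04). MARCO and CD163 had no more than 1 read. CD14 had 5 to 12 reads in control, 0 to 4 in TGF-β and 3 to 8 in TGF-β + uridine libraries. The leukocyte list, nearly all of it CSF1R, summed to 384 to 448, 1585 to 1790 and 1424 to 1522 reads. The endothelial list summed to 75 to 84 reads in control, 76 to 116 in TGF-β and 97 to 124 in TGF-β + uridine libraries, although its member CDH5, the endothelial cadherin, fell from 11 to 45 control reads to 0 to 3 reads under TGF-β (log2 fold change −3.88, edgeR adjusted p = 0.0314, up to 0.140 with 1 library left out and held only without control replicate 1 or control replicate 3). The hepatocyte list summed to 66 to 84, 64 to 68 and 39 to 49 reads. The part of these genes in the values of the 6 factors was not tested.

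SNAI1 and TWIST2 made up most of the transcripts of the family. Levels of different genes were compared as FPKM, which divides reads by gene length and library total. SNAI1 was at 12.7 to 27.2 FPKM and TWIST2 at 9.43 to 15.7 FPKM across the 9 libraries, and together they held 87.2% to 93.7% of the summed FPKM of the 6 genes. SNAI2 (0.334 to 2.55 FPKM) and TWIST1 (0.868 to 1.95 FPKM) followed. ZEB2 did not exceed 0.230 FPKM and ZEB1 did not exceed 0.0715 FPKM in any library. By mean FPKM, SNAI1 lay above 87.9% of listed genes, TWIST2 above 83.2%, SNAI2 above 62.9%, TWIST1 above 62.3%, ZEB2 above 37.7% and ZEB1 above 29.3%.

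The order of SNAI2 and TWIST1 differed between control and treated libraries. TWIST1 lay above SNAI2 in all 3 control libraries, and SNAI2 lay above TWIST1 in all 6 TGF-β and TGF-β + uridine libraries. SNAI1 lay above TWIST2 in 8 of 9 libraries, the exception being control replicate 1, where TWIST2 was at 15.7 and SNAI1 at 15.2 FPKM. In the control group the ranges of SNAI1 and TWIST2 overlapped, while in both treated groups every SNAI1 value exceeded every TWIST2 value. ZEB2 lay above ZEB1 in 8 of 9 libraries, again except control replicate 1. The share of SNAI1 in the summed FPKM was 46.1%, 48.1% and 49.99% in the control libraries, 59.0%, 57.6% and 59.2% in the TGF-β libraries and 65.5%, 65.4% and 59.9% in the TGF-β + uridine libraries. These 3 ranges did not overlap. The share of TWIST2 was 47.7%, 41.1% and 37.2% in control, 34.4%, 33.8% and 32.1% in TGF-β and 24.98%, 27.0% and 30.01% in TGF-β + uridine libraries, also without overlap. Shares of the same sum are not independent, and the FPKM of TWIST2 itself averaged 12.1 in control, 12.02 in TGF-β and 11.3 in TGF-β + uridine libraries. The separation of these shares was not tested, and how often other genes separate in this way was not computed. As counts scaled to library size, 17.7% to 25.6% of all genes did not overlap between 2 groups.

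**Figure D1:**
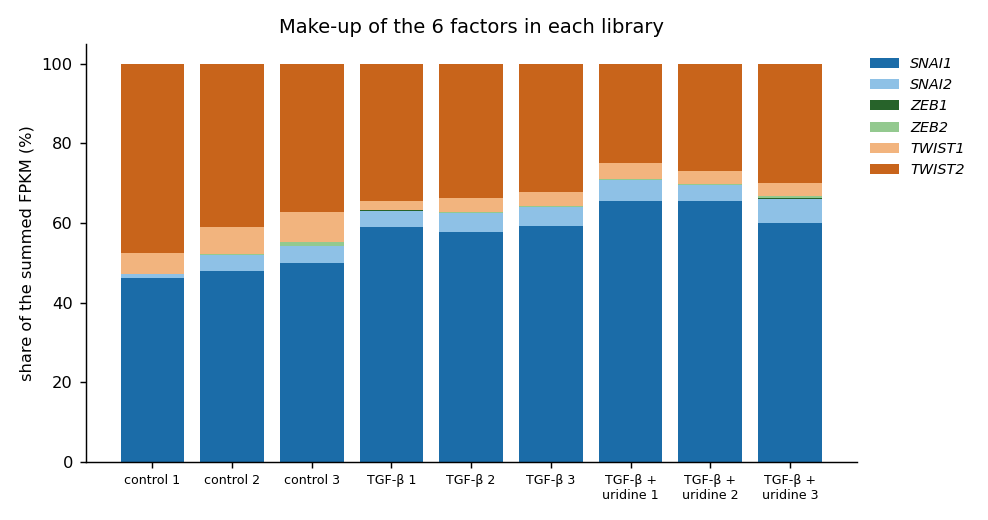
Share of each of the 6 factors in their summed FPKM (y axis, percent) in the 9 libraries (x axis, group and replicate number). SNAI1 and TWIST2 fill 87.2% to 93.7% of every bar, and the SNAI1 part is smallest in the control libraries.

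Within a gene, levels were compared as CPM (counts scaled to the library size after TMM normalization). SNAI1 lies on chr20:49982999-49988886 of GRCh38, plus strand. It had 1067, 905 and 891 reads in the control libraries, 1573, 1355 and 1502 in the TGF-β libraries and 1905, 1911 and 1721 in the TGF-β + uridine libraries. As CPM these were 31.6, 21.6 and 18.7 in control, 39.6, 32.8 and 36.6 in TGF-β, and 44.3, 49.9 and 38.9 in TGF-β + uridine libraries. Every treated library exceeded every control library, while on the CPM scale both treated groups overlapped. Groups did not overlap in 17.7% of all genes for TGF-β and 19.7% for TGF-β + uridine against control. As FPKM, which lacks the TMM scaling, both treated groups did not overlap, at 19.2 to 22.5 in TGF-β and 24.6 to 27.2 in TGF-β + uridine libraries. The share of all genes without overlap was not computed for FPKM, and for CPM it was 25.6% between both treated groups. Control CPM varied with a coefficient of variation of 28.3%, against 3.24% from counting alone, so the spread between libraries was far larger than the counting error.

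SNAI2 lies on chr8:48917604-48921740, minus strand. It had 30, 93 and 94 reads in control, 139, 146 and 155 in TGF-β and 201, 156 and 228 in TGF-β + uridine libraries. As CPM these were 0.889, 2.21 and 1.97, then 3.50, 3.53 and 3.78, and then 4.67, 4.08 and 5.15. The 3 groups did not overlap on this scale, where 17.7% to 25.6% of all genes did not overlap between 2 groups. The share over all 3 groups was not computed. As FPKM, the lowest TGF-β + uridine library and the highest TGF-β library were both at 1.74. Control replicate 1 stood apart with 30 reads (95% Poisson interval 20.2 to 42.8, which covers counting error only), below the intervals of the other control libraries.

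ZEB1 lies on chr10:31318495-31529814, plus strand, and gave only 2 to 24 reads per library. Its CPM were 0.237, 0.143 and 0.168 in control, 0.226, 0.315 and 0.438 in TGF-β and 0.0930, 0.0523 and 0.542 in TGF-β + uridine libraries. The groups overlapped, and TGF-β + uridine replicate 3 (24 reads, interval 15.4 to 35.7) stood above the other TGF-β + uridine libraries, whose intervals ended at 10.2 and 7.2 reads. ZEB2 (chr2:144364364-144524583, minus strand) had 7, 25 and 88 reads in control, 17, 20 and 29 in TGF-β and 41, 11 and 78 in TGF-β + uridine libraries. Its groups also overlapped, with the extremes of all libraries inside the control group. The coefficient of variation of ZEB2 CPM was 97.0% in control and 73.8% in TGF-β + uridine libraries, against counting errors of 15.8% and 15.2%.

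ZEB1 was the only one of the 3 factors with a RefSeq promoter window (ZEB1, ZEB2 and TWIST2) to hold the letters CAGGTG or their reverse complement CACCTG in the 250 bases before a start site. They stood in 2 of its 7 windows, and in 17.5% of all 35116 windows. Of the 3 matches, the 2 that read CAGGTG on the strand of the gene are shown with 12 bases on each side because ZEB1 carries the letters that SNAI and ZEB proteins read; capitals mark the match (RefSeq, GRCh38.p14, plus strand, chr10:31318348-31318377 and chr10:31319119-31319148). A match of letters is no measure of binding.
ZEB1, 57 bases before its start site: ccgaggtgacagCAGGTGagggccgggtgc
ZEB1, 85 bases before another start site: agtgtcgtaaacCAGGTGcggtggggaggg

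TWIST1 lies on chr7:19020991-19117672, minus strand. It had 114, 120 and 131 reads in control, 58, 78 and 88 in TGF-β and 107, 91 and 88 in TGF-β + uridine libraries. As CPM these were 3.38, 2.86 and 2.75, then 1.46, 1.89 and 2.14, and then 2.49, 2.38 and 1.99. Every treated library lay below every control library, and both treated groups overlapped. Groups did not overlap in 17.7% of all genes for TGF-β and 19.7% for TGF-β + uridine against control. TWIST2 (chr2:238848032-238910543, plus strand) had 34.9, 19.7 and 14.8 CPM in control, 24.6, 20.5 and 21.2 in TGF-β and 18.05, 22.03 and 20.8 in TGF-β + uridine libraries. The treated libraries lay inside the control range.

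**Figure D2:**
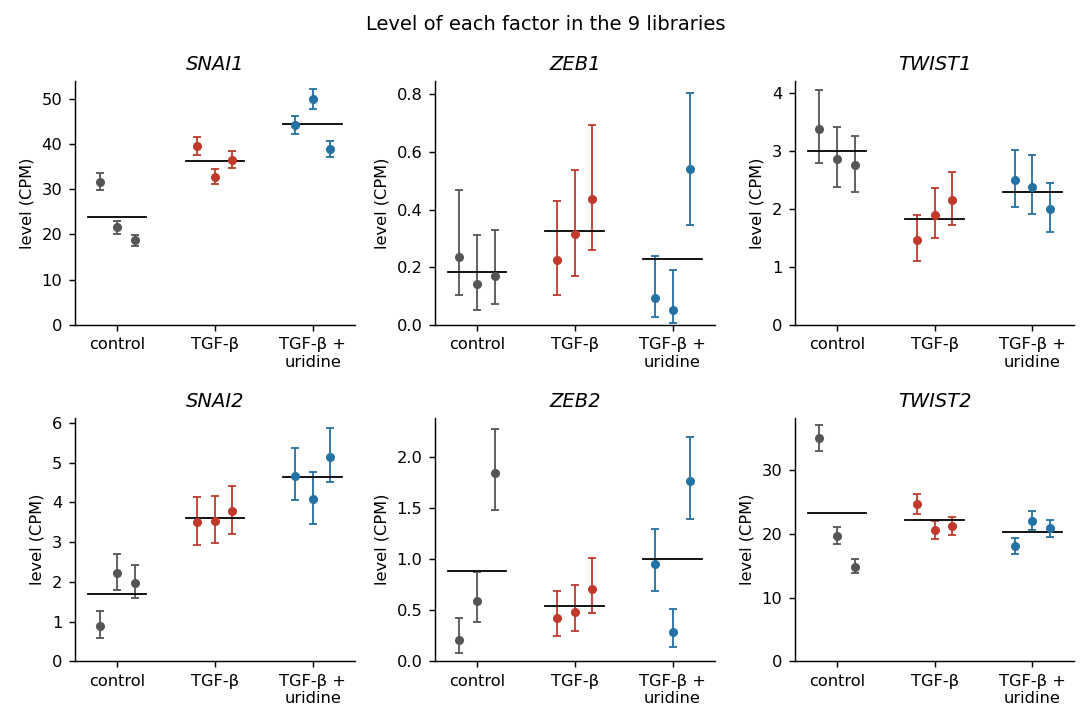
Level of each factor as CPM (y axis, linear from 0, own scale per panel) in the 3 libraries of each group (x axis); points are libraries with exact 95% Poisson intervals of the count, and bars are group means. SNAI1 and SNAI2 are higher, and TWIST1 lower, in every treated library than in every control library. Against control, 17.7% (TGF-β) and 19.7% (TGF-β + uridine) of all genes did not overlap.

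The comparison of TGF-β with control asks how the factors responded to the profibrotic cytokine. SNAI1 was 1.52-fold higher on average in the TGF-β group, SNAI2 2.12-fold higher and TWIST1 1.63-fold lower, but none of the 6 passed an edgeR quasi-likelihood test adjusted over the 13384 genes tested. In that comparison 3.38% of all tested genes were called, 2.42% higher and 0.964% lower. The log2 fold change of SNAI1 was 0.60 (SE 0.20, 95% interval 0.15 to 1.05, edgeR adjusted p = 0.191). SNAI2 had 1.08 (SE 0.32, interval 0.36 to 1.81, adjusted p = 0.137) and TWIST1 −0.71 (SE 0.24, interval −1.24 to −0.17, adjusted p = 0.199). The differences of ZEB1 (0.84, SE 0.77), ZEB2 (−0.73, SE 0.80) and TWIST2 (−0.06, SE 0.28) were smaller than, or about as large as, their standard errors.

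At an unadjusted p under 0.05, 3 of the 6 factors passed in edgeR, namely SNAI1, SNAI2 and TWIST1, against 12.1% of all genes tested. DESeq2 called 1 of them (SNAI2), beside 4.89% of all genes, and limma on log2(FPKM + 1) called 2 of the 4 factors it tested (SNAI1 and TWIST1), beside 8.1% of all genes. TWIST1 was not called by limma on log2(FPKM + 0.1) (limma adjusted p = 0.0575) or on all listed genes (limma adjusted p = 0.131). The same 3 factors showed no overlap between groups, which held for 17.7% of all genes (9.72% higher and 7.96% lower), each with an exact permutation p = 0.1, the smallest that 3 libraries against 3 allow. Without control replicate 1, edgeR called SNAI1 (log2 fold change 0.85, adjusted p = 0.00448) and SNAI2 (0.78, adjusted p = 0.0499), beside 7.93% of all genes, and TWIST2 turned from −0.06 to 0.35 (adjusted p = 0.178). In bulk RNA, a change in the share of cells that express a gene and a change of RNA per cell cannot be told apart.

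The comparison of TGF-β + uridine with TGF-β asks what uridine added. None of the 6 factors was called by edgeR, by DESeq2 or by limma on log2(FPKM + 1), and none passed an unadjusted p under 0.05 in edgeR, where 8.79% of all genes did. In this comparison edgeR called 0.0448% of all genes, DESeq2 0.849% and limma 3.89%. SNAI1 had a log2 fold change of 0.29 (interval −0.16 to 0.73, edgeR adjusted p = 0.796) and SNAI2 of 0.36 (interval −0.34 to 1.07, adjusted p = 0.864). TWIST1 had 0.32 (interval −0.21 to 0.85) and TWIST2 −0.12 (interval −0.75 to 0.50). The interval of SNAI1 reached from 0.898-fold to 1.66-fold and that of SNAI2 from 0.787-fold to 2.10-fold. For ZEB1 (−0.49, interval −2.18 to 1.205) and ZEB2 (0.89, interval −0.91 to 2.70) the intervals spanned over 3 log2 units. SNAI2 was the only factor whose groups did not overlap as CPM, against 25.6% of all genes, 12.8% higher and 12.8% lower.

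In TGF-β + uridine against control, both SNAI genes rose. The log2 fold change of SNAI1 was 0.89 (SE 0.20, 1.85-fold, 95% interval 1.36-fold to 2.53-fold, edgeR adjusted p = 0.0355) and that of SNAI2 1.45 (SE 0.32, 2.73-fold, interval 1.65-fold to 4.51-fold, adjusted p = 0.0355). These were 2 of 6 factors, where 5.33% of all tested genes were called, 2.89% higher and 2.44% lower. At an unadjusted p under 0.05 the same 2 factors and 17.6% of all genes passed. TWIST1 had −0.39 (SE 0.23, adjusted p = 0.485), with the groups again not overlapping, as held for 3 of the 6 factors and 19.7% of all genes (10.5% higher and 9.2% lower). ZEB1 (0.36, SE 0.78), ZEB2 (0.17, SE 0.78) and TWIST2 (−0.19, SE 0.28) were within their standard errors. This comparison and that of TGF-β with control share their control libraries.

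The other tools called both SNAI genes. DESeq2 gave SNAI1 an adjusted p = 0.00657 and SNAI2 an adjusted p = 1.78e-04, beside 7.24% of all genes called, and limma on log2(FPKM + 1) gave 4.83e-04 and 0.0195, beside 14.3%. Upper-quartile normalization, no filter and a minimum of 10 counts in every library also kept both calls in edgeR. RLE normalization lost the call of SNAI1 (edgeR adjusted p = 0.0514), and a block for the replicate number lost that of SNAI2 (edgeR adjusted p = 0.0627). With 1 library left out, SNAI1 was called in 1 of 9 cases, without control replicate 1 (adjusted p = 7.61e-04, where 17.6% of all genes were called), and otherwise had adjusted p from 0.0605 without control replicate 3 to 0.156 without control replicate 2. SNAI2 was called without control replicate 1 (adjusted p = 0.00756) and without control replicate 3 (adjusted p = 0.0463), and otherwise had adjusted p from 0.0631 to 0.123. The log2 fold changes stayed between 0.74 and 1.12 for SNAI1 and between 1.13 and 1.69 for SNAI2. With only the control and TGF-β + uridine libraries in the model, neither was called (adjusted p = 0.131 and 0.170).

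**Figure D3:**
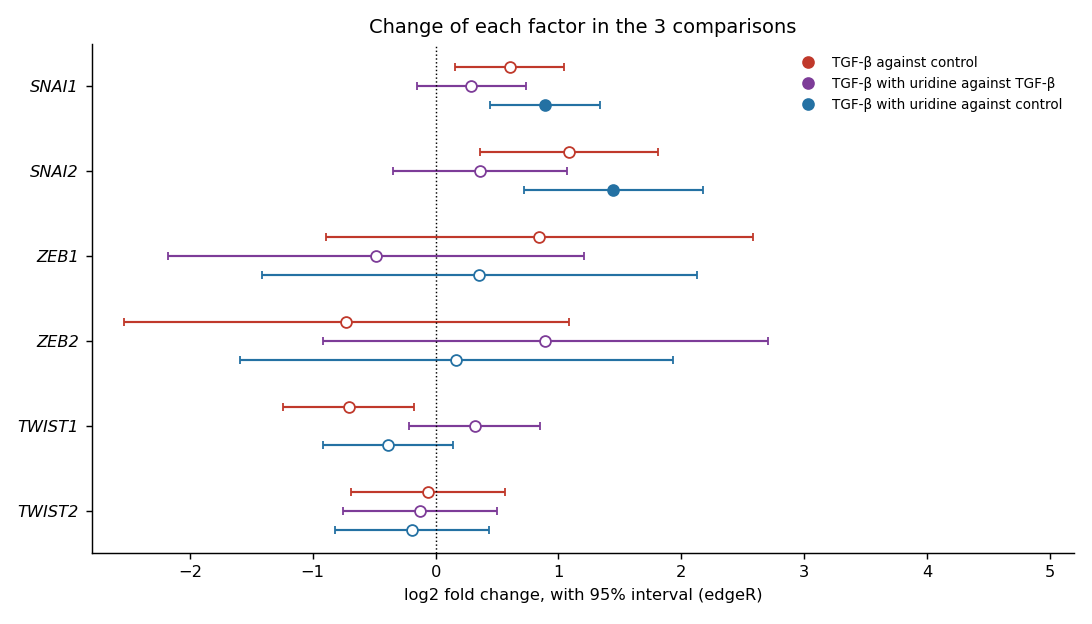
Log2 fold change of each factor (x axis, edgeR) in the 3 comparisons, with 95% intervals; filled points have an adjusted p under 0.05. Filled points are SNAI1 and SNAI2 in TGF-β + uridine against control, at 0.89 and 1.45.

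The paralogs of each pair were also compared within each library, where scaling between libraries does not matter. SNAI1 exceeded SNAI2 per length by 12.1-fold to 45.5-fold in control, 11.9-fold to 14.5-fold in TGF-β and 9.65-fold to 15.7-fold in TGF-β + uridine libraries. Control replicate 1 gave the 45.5-fold ratio and the other control libraries 12.4-fold and 12.1-fold. TWIST2 exceeded TWIST1 by 4.84-fold to 9.26-fold in control, 8.85-fold to 15.1-fold in TGF-β and 6.49-fold to 9.37-fold in TGF-β + uridine libraries. The log2 count ratio of TWIST1 to TWIST2 was −2.86 ± 0.47 (SD, n = 3) in control and −3.599 ± 0.41 (SD, n = 3) in TGF-β libraries (exact permutation p = 0.2). The log2 ratio of ZEB1 to ZEB2 was −0.72 ± 0.14 in TGF-β and −2.36 ± 0.78 in TGF-β + uridine libraries, without overlap (exact permutation p = 0.1, adjusted p = 0.6 over 9 ratio tests), and rests on 2 to 78 reads a gene. No ratio passed, and with 3 libraries a group none could.

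Libraries of a group differed in how levels depended on the GC content of genes. The slope of log2 CPM on gene GC fraction, computed in each library, was 5.65, −0.73 and −4.10 in the control libraries, 0.54, −0.32 and −0.13 in the TGF-β libraries and −0.50, 2.28 and −2.69 in the TGF-β + uridine libraries. SNAI1 (GC 58.2%) and TWIST2 (57.0%) were highest in control replicate 1 and lowest in control replicate 3, by 0.44 and −0.32 and by 0.69 and −0.55 log2 units around the control mean. ZEB2 (GC 39.1%) ran the other way, from −1.41 in control replicate 1 to 1.48 in control replicate 3. SNAI2 (GC 41.4%) was 0.79 log2 units below the control mean in control replicate 1. TWIST1 (GC 57.2%) ran in the same order as SNAI1 and TWIST2 but by less, with 0.18, −0.06 and −0.12 in control replicates 1, 2 and 3. ZEB1 (GC 38.5%) was highest in control replicate 1, by 0.33, unlike ZEB2. In the TGF-β + uridine group SNAI1 followed the order of the slopes, with deviations of 0.005, 0.18 and −0.18 in replicates 1, 2 and 3. SNAI2 (0.02, −0.18 and 0.16), ZEB1 (−0.52, −1.01 and 1.54) and ZEB2 (0.24, −1.34 and 1.09) ran in the reverse order. TWIST1 (0.13, 0.06 and −0.19) and TWIST2 (−0.16, 0.12 and 0.04) followed neither order.

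With the slope as a covariate in edgeR, SNAI1 was called in all 3 comparisons. Its log2 fold changes were 0.65 in TGF-β against control (adjusted p = 9.41e-06), 0.31 in TGF-β + uridine against TGF-β (adjusted p = 0.00519) and 0.96 in TGF-β + uridine against control (adjusted p = 2.19e-07). SNAI2 was called in both comparisons with control (1.13, adjusted p = 0.00112, and 1.45, adjusted p = 1.06e-04) and TWIST1 in TGF-β against control (−0.69, adjusted p = 0.0330). With the replicate block added to the covariate, TWIST1 lost its call at about the same change (−0.70, edgeR adjusted p = 0.0631). The covariate raised the calls over all genes as well, from 453 to 2715 (20.3%) in TGF-β against control, from 6 to 2554 (19.1%) in TGF-β + uridine against TGF-β and from 714 to 4162 (31.1%) in TGF-β + uridine against control. An offset from a loess fit per library, chosen after seeing the data, called SNAI1 and SNAI2 in both comparisons with control, beside 8.76% and 14.4% of all genes, and no factor in TGF-β + uridine against TGF-β, beside 2.83%.

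**Figure D4:**
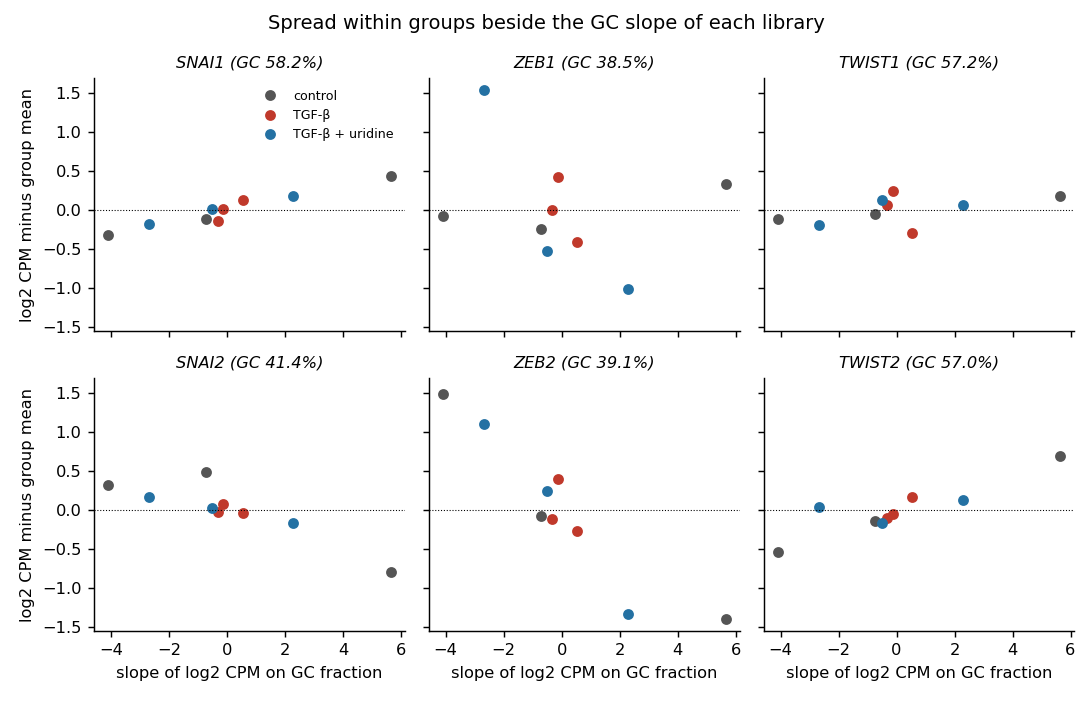
Deviation of each factor's log2 CPM from its group mean (y axis) against the slope of log2 CPM on GC fraction in the same library (x axis), colored by group; panel titles give the GC content of the gene. Control libraries lie at slopes of 5.65, −0.73 and −4.10, and ZEB2 runs from −1.41 to 1.48 across them.

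The strand setting of the counting is not given in the sources used here. ZEB1, ZEB2 and TWIST1 overlap antisense genes, whose reads could not be told apart without strand, and ZEB1-AS1 alone had 4 to 23 reads per library, beside 2 to 24 for ZEB1. Of the 50-base stretches of their transcripts, 2.84% of ZEB1, 4.41% of ZEB2 and 2.47% of TWIST1 also stood in transcripts of other genes, whereas none of SNAI1, SNAI2 or TWIST2 did.

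Other factors of the same program were read beside the 6. Of 19 further mesenchymal transition factors, 16 were analysed and 12 tested, and FOXC2 and ETS2 rose in both comparisons with control, where 3.38% and 5.33% of all genes were called. With the GC slope covariate 5 and 7 were called, beside 20.3% and 31.1% of all genes, and without control replicate 1 there were 3 and 5, beside 7.93% and 17.6%. FOXC2, a forkhead factor, went from 3.201 ± 0.504 to 8.64 ± 1.11 CPM (SD, n = 3) under TGF-β, which is 1.43 on the log2 scale (SE 0.24, edgeR adjusted p = 0.0109), and stood at 9.30 ± 2.36 CPM with uridine. Its call under TGF-β was lost without TGF-β replicate 1 or TGF-β replicate 3 (adjusted p up to 0.0640). ETS2 had log2 fold changes of 0.69 and 0.58. PRRX1 and the third SNAI gene, SNAI3, had at most 1 and 3 reads. Of the factors that hold epithelial identity, 7 of 18 were tested, KLF4 rose in both comparisons with control (0.87 and 0.70), and ELF3 fell under TGF-β by 0.88 on the log2 scale (adjusted p = 0.0426). The call of ELF3 held in 11 of 22 alternatives and, with 1 library left out, only without control replicate 1 or control replicate 3, with adjusted p up to 0.209 otherwise and 0.104 with the replicate block. KLF4 kept its call under TGF-β in 9 of 9 cases with 1 library left out, and in TGF-β + uridine against control in 6 of 9, losing it without control replicate 2, TGF-β + uridine replicate 1 or TGF-β + uridine replicate 3 (adjusted p up to 0.0854). OVOL1, OVOL2, GRHL2 and ESRP1 had no more than 1 read in any library.

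Corepressors and protein stability genes were not called in any comparison by edgeR with the groups alone in the model. The first list holds partners such as CTBP1, HDAC1, KDM1A and EZH2, of which 24 of 25 were tested, and the second kinases, ubiquitin ligases and deubiquitinases such as GSK3B, BTRC and FBXL14, of which 22 of 25 were tested. At an unadjusted p under 0.05, 1, 1 and 4 corepressors and 0, 2 and 3 stability genes passed in TGF-β against control, TGF-β + uridine against TGF-β and TGF-β + uridine against control, beside 12.1%, 8.79% and 17.6% of all genes, and DESeq2 called none in any, beside 4.89%, 0.849% and 7.24%. Limma on log2(FPKM + 1) called 0, 1 and 2 corepressors and 0, 0 and 2 stability genes, beside 8.1%, 3.89% and 14.3%. With the GC slope covariate edgeR called 3, 7 and 10 corepressors and 2, 3 and 7 stability genes, beside 20.3%, 19.1% and 31.1% of all genes. With the loess offset it called 0, 1 and 2 corepressors and no stability gene, beside 8.76%, 2.83% and 14.4%. Without control replicate 1 it called 8 corepressors and 3 stability genes in TGF-β + uridine against control, beside 17.6%. Their median log2 fold changes in TGF-β against control were −0.04 and 0.03, beside −0.05 over all genes tested.

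Of 25 tested genes known to be raised in mesenchymal transition, 11 rose under TGF-β, 14 were not called and none fell, with a median log2 fold change of 0.996, where 2.42% of all genes were called higher. Without control replicate 1, 15 were called, beside 7.93% of all genes. The integrin subunit ITGB3 had 2.22 (SE 0.49, edgeR adjusted p = 0.0454), the collagen cross-linking enzyme LOX 2.04 (SE 0.16, adjusted p = 2.30e-04), the matrix glycoprotein THBS1 1.96 (SE 0.29, adjusted p = 0.00590) and smooth muscle actin, ACTA2, 1.58 (SE 0.26, adjusted p = 0.0106). In TGF-β + uridine against control, 13 of 25 were higher, where 2.89% of all genes were called higher, led by the matrix protease MMP3 (3.39, SE 0.66, adjusted p = 0.0206, on 1 to 2 control reads) and followed by the matrix protein tenascin C, TNC (1.89), THBS1 (1.78) and LOX (1.65). With 1 library left out, 8 to 15 were called in this comparison, beside 2.23% to 17.6% of all genes. The GC slope covariate gave 18, beside 31.1%. Between both treated groups none was called by edgeR, where 0.0448% of all genes were. At an unadjusted p under 0.05, 2 of the 25 passed, beside 8.79% of all genes. There were 0 calls by DESeq2, beside 0.849%, and 0 by limma, beside 3.89%, but 9 by edgeR with the GC slope covariate, beside 19.1% of all genes. With 1 library left out, ITGB3 kept its call in 1 of 9 cases, without control replicate 1, and otherwise had adjusted p up to 0.205. ACTA2 lost its call under TGF-β without control replicate 2, TGF-β replicate 1 or TGF-β replicate 2 (adjusted p up to 0.0673). MMP3 kept its call in 4 of 9 cases and lost it without control replicate 2, control replicate 3 or any 1 of the TGF-β + uridine libraries (adjusted p up to 0.109). Of 9 direct SMAD response genes, 6 rose under TGF-β, among them TGFBI (2.84), CCN2 (2.78) and PMEPA1 (2.59), and 7 in TGF-β + uridine against control, where 2.42% and 2.89% of all genes were called higher.

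Genes known as repressed targets of the 6 factors moved in both directions. E-cadherin, CDH1, the textbook target, was barely transcribed, with 4 to 36 reads in control, 17 to 33 in TGF-β and 6 to 27 in TGF-β + uridine libraries, and log2 fold changes of 0.07 (SE 0.68) and −0.47 (SE 0.69) against control. Of 23 tested, TJP3 and CLDN4 were called in TGF-β against control, and the median log2 fold change was −0.05, equal to that over all genes. In that comparison 3.38% of all genes were called. With the GC slope covariate 10 targets were called, beside 20.3% of all genes, and with the loess offset 5, beside 8.76%. TJP3, a tight junction scaffold, fell from 178 to 230 reads to 23 to 41 reads, with log2 fold changes of −2.68 (SE 0.34, edgeR adjusted p = 0.00288) and, with uridine, −2.90 (SE 0.35, adjusted p = 0.00190). The claudin CLDN4 rose instead, from 492 to 592 reads to 1475 to 1642 reads (1.48, SE 0.18, adjusted p = 0.00248).

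In TGF-β + uridine against control, 3 repressed targets fell and 1 rose, with a median of −0.19 over the 23, where 2.44% of all genes were called lower and 2.89% higher. Without control replicate 1, 9 were called, beside 17.6% of all genes, and without control replicate 3, 7, beside 5.43%. Between both treated groups, edgeR called 0, with 4 of the 23 at an unadjusted p under 0.05, beside 8.79% of all genes. DESeq2 called 0, beside 0.849%, and limma 2, beside 3.89%. The GC slope covariate gave 9 calls there, beside 19.1% of all genes, the loess offset 4, beside 2.83%, and the fit without control replicate 1 gave 3, beside 1.98%. Besides TJP3, CLDN7, another claudin, went from 11.3 ± 4.82 CPM (SD, n = 3) in control to 3.75 ± 0.0811 (log2 fold change −1.59, SE 0.29, edgeR adjusted p = 0.0153, lost without any 1 of the TGF-β + uridine libraries, up to 0.0777), and plakoglobin, JUP, from 399.96 ± 84.6 to 209.9 ± 14.6 CPM (−0.93, SE 0.15, adjusted p = 0.00781). In the TGF-β group these stood at 6.53 ± 1.01 and 296 ± 14.1 CPM, between the other groups. With the groups alone in the model, edgeR called neither in TGF-β against control (adjusted p = 0.2502 and 0.207) or between both treated groups (adjusted p = 0.451 and 0.362). Of 22 alternatives, 3 called CLDN7 and 6 called JUP in TGF-β against control. Between both treated groups 3 called CLDN7 and 8 called JUP. CLDN4 was higher again (1.57).

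**Figure D5:**
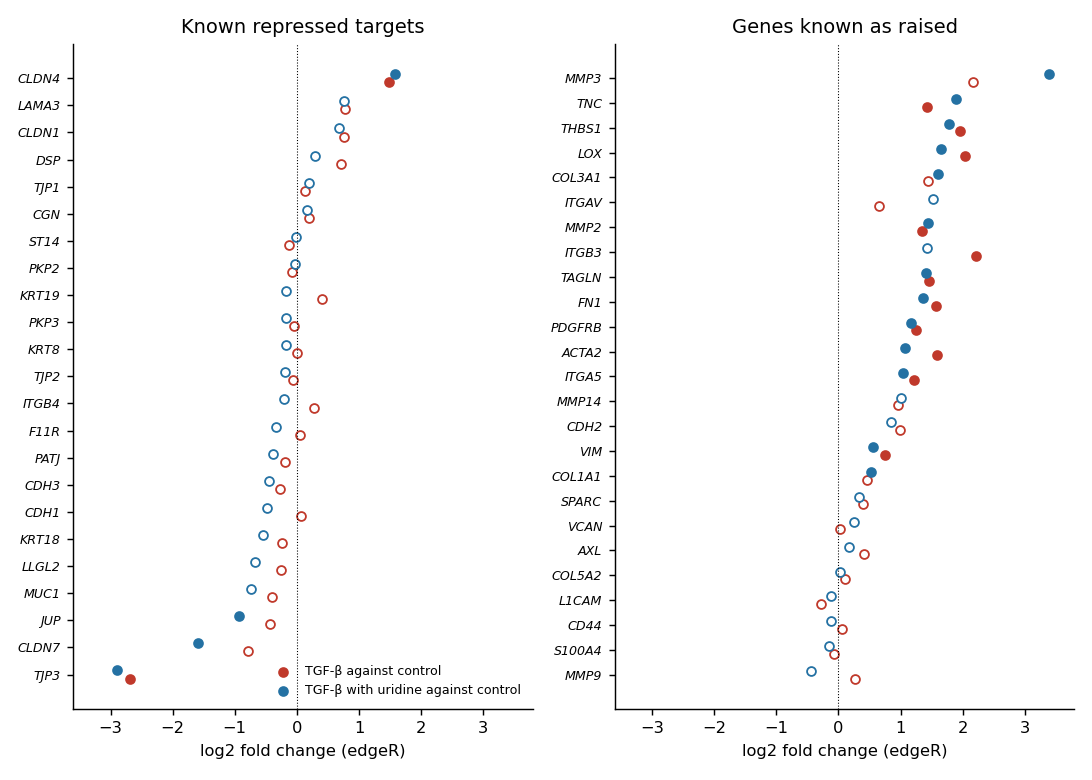
Log2 fold change (x axis, edgeR) of tested genes known as repressed targets of the factors (left) and of genes known as raised in mesenchymal transition (right) in both comparisons with control; filled points have an adjusted p under 0.05. On the left TJP3, CLDN7 and JUP lie below 0 and CLDN4 above, and on the right every filled point lies above 0.

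The letters CAGGTG or CACCTG stood in the 250 bases before a start site of 11 of 17 repressed targets with a RefSeq promoter window (64.7%), of 3 of 19 genes of the raised list (15.8%) and of 20.6% of all genes with a window. The wider pattern CANNTG, which includes these letters, was found in 66.7% of all genes and 76.5% of the repressed targets. All 3 repressed targets that fell hold a match and CLDN4, which rose, holds none. A match also stood before LOX, which rose, in 2 of its 3 windows, and before the repressed target desmoplakin, DSP, with a log2 fold change of 0.71 under TGF-β (edgeR adjusted p = 0.519). Among tested targets, the median log2 fold change in TGF-β + uridine against control was −0.56 for the 8 with a match and 0.43 for the 4 with a window and no match, a description on few genes that was not tested. The targets were listed for being repressed by E-box factors, so a match in their promoters is no separate result. One site of each gene that fell is shown with the match in capitals, 5′ to 3′ on the strand of the gene (RefSeq, GRCh38.p14; TJP3 chr19:3721718-3721747, plus strand; CLDN7 chr17:7262596-7262625 and JUP chr17:41786002-41786031, both minus strand).
TJP3, 7 bases before its start site: gaggaagaggggCAGGTGcagccgggagct
CLDN7, 135 bases before its start site: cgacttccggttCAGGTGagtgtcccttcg
JUP, 43 bases before its start site: ccacctgccgagCAGGTGagcgcacggagt

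Genes with the pattern most like each factor were sought among 9840 genes, by the root mean square difference of log2 CPM over the 9 libraries, each gene centred on its own mean. The closest to SNAI1 were SMIM3 (0.047 log2 units), DPF1 (0.084) and PDLIM4 (0.092), where SNAI1 itself varied by 0.44 around its mean. The closest to SNAI2 were MATN2 (0.21), TNC (0.24) and EDN1 (0.26), less close and against a variation of 0.73. For TWIST1 they were ARSG (0.091), CD83 (0.091) and KLRG2 (0.12), and for TWIST2 PTOV1 (0.074), ZNF219 (0.080) and ND3 (0.081). Among the paralogs, SNAI2 ranked 6561 by likeness to SNAI1, while SNAI1 ranked 929 by likeness to SNAI2. TWIST2 ranked 5608 by likeness to TWIST1, and TWIST1 5785 by likeness to TWIST2. ZEB1 and ZEB2 were too low to be compared. All points share the same libraries, with their depth and GC slope.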

How the data were processed

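RNA of 9 LX-2 libraries in 3 groups of 3 was analysed, grouped by the sample labels. The authors deposited counts of reads per gene symbol, not normalized, and FPKM values, which equal the deposited counts divided by the library total and a fixed gene length. The submitters' processing notes name fastp, HISAT2, HTSeq, R 3.2.0 and GRCh38.p13, without roles or order, while the annotation and the strand setting are not given in the sources used here. No value column was left unassigned.

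The quasi-likelihood test of edgeR 4.0.16 under R 4.3.3 was fitted to the counts (TMM normalization, low genes removed by filterByExpr) in 1 model of the 3 groups, with two-sided p-values adjusted by the Benjamini-Hochberg method over 13384 tested genes and called below 0.05. Single values were compared by exact permutation tests in scipy 1.17.1. Paralog ratios were log2 of counts with 0.5 added. A floor of 3 counts was planned for counts of 0, but no factor needed it, since each had at least 2 reads in every library. Coordinates and GC content came from GENCODE v29 (GRCh38), matched for 92.0% of tested genes, and promoter windows from RefSeq. The edgeR fit of TGF-β against control was tested on simulated counts with known changes. These counts held no GC slope, so the dependence of calls on the slope was not covered.

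Alternatives were RLE and upper-quartile normalization, no filter and at least 10 counts in every library, only the 2 groups compared, the replicate number as a block, a covariate for the GC slope with and without the block, DESeq2 1.42.0, limma 3.58.1 on log2(FPKM + 1) or log2(FPKM + 0.1), for genes whose mean FPKM reached 0.5 or for all genes, and each library left out. Ratios were also computed with 1 count added. An offset from a loess fit on GC content (span 0.3) was chosen after seeing the data. Named genes were the 6 factors, CDH1, up to 4 called genes with the largest change per list and comparison, and for each factor whose mean log2 CPM reached 1 the 3 genes most alike. Other genes were named as examples of their list, after their values had been seen. 1 gene of the lists is not reported here and was left out of their counts. The members and lists were chosen with earlier results of these data known.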

Additional observations from a re-analysis of the deposited data

How the results depend on the processing

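The number of factors called moved with the processing. In TGF-β against control, edgeR called 0, and the alternatives called 3 with the GC slope covariate, 2 with this covariate and the replicate block, 2 with the GC loess offset, 1 with DESeq2, 2 with limma on log2(FPKM + 1), 1 with limma on log2(FPKM + 0.1), 1 with limma on all listed genes, and 0 to 2 with 1 library left out. In TGF-β + uridine against TGF-β, 0 were called, 1 with the GC slope covariate and 1 with this covariate and the block. In TGF-β + uridine against control, 2 were called, 1 with RLE normalization (SNAI1 at adjusted p = 0.0514), 0 with only the 2 groups compared and 0 to 2 with 1 library left out, where fewer libraries entered the fit.

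The labels do not pair libraries by replicate number. Correlations of deviations from the group mean ranged from −0.21 to 0.56 between same-numbered libraries. Between differently numbered libraries they ranged from −0.66 to 0.63. With 3 libraries a group, each taken from its own group mean, these correlations cannot decide whether the numbers pair the libraries. With the replicate block, 1 factor was called in TGF-β + uridine against control (SNAI1, adjusted p = 0.0438, and SNAI2, adjusted p = 0.0627) and 0 in the other comparisons. Paired differences of the paralog ratios gave exact permutation p from 0.25, the smallest possible for 3 pairs, to 1.0.

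SNAI1, SNAI2 and TWIST1 kept the direction of their log2 fold changes in all 22 alternatives of each comparison. TWIST2 reversed in TGF-β against control, to 0.0464 with the GC slope covariate, 0.0501 with this covariate and the block, 0.0142 and 0.0173 with limma on log2(FPKM + 1) and log2(FPKM + 0.1), 0.0142 on all listed genes, and −0.30 to 0.35 with 1 library left out. It gave −0.43 to 0.21 with 1 library left out in TGF-β + uridine against control. ZEB2 gave −1.19 to 0.40 in TGF-β against control and −0.52 to 1.30 in TGF-β + uridine against control with 1 library left out, and ZEB1 in the latter −1.26 to 0.80, and −0.0476 with the GC loess offset. With 1 library left out, the log2 ratio of SNAI1 to SNAI2 differed by −0.88 to 0.0692 in TGF-β against control and by −0.25 to 0.10 in TGF-β + uridine against TGF-β, and that of ZEB1 to ZEB2 by −1.47 to 0.31 in TGF-β + uridine against control. The cause of these reversals was not tested. The called genes of the raised list numbered 8 to 18 in the alternatives of TGF-β against control (11 in edgeR), those of the repressed targets 2 to 12 in TGF-β + uridine against control (4 in edgeR), and those of the epithelial identity factors 1 to 3 and 0 to 4 in these comparisons (2 and 1 in edgeR), the highest of each with the GC slope covariate, where 20.3% and 31.1% of all genes were called. The 3 genes most alike to each factor stayed the same with RLE normalization. Low reads limit ZEB1 and ZEB2. The coefficient of variation in control CPM was 28.3% for SNAI1 and 45.2% for TWIST2, far above counting error, and 11.2% for TWIST1, close to its counting error of 9.07%.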
